A study of Mus musculus with 7 samples.

Results

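The genes described here are 10 members of the machinery that shows peptides to T cells, taken from 17422 genes measured in 7 RNA-seq libraries of mouse gliomas and of the neural progenitors used to make such tumours. They were chosen as a named gene family, with no threshold on measured values, though earlier results of these data were known. The 6 class I members are the heavy chains H2-K1 and H2-D1, their light chain B2m, the peptide transporter subunits Tap1 and Tap2, and the immunoproteasome subunit Psmb8. The 4 class II members are the invariant chain Cd74, the chains H2-Aa and H2-Ab1 of the A molecule, and the beta chain H2-Eb1 of the E molecule. All 10 were present in every library's table, matched through their Ensembl identifiers.

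Gliomas had been raised from BALB/c neural precursors taken at embryonic day 14 and transduced with a retrovirus carrying DsRed, a red fluorescent protein, together with an oncogene. The oncogene was either PDGF-B, a growth factor, in wild-type cells, or EGFRvIII, a truncated and constantly active growth factor receptor, in cells of genotype Ink/Arf -/-, which lack the tumour suppressors of the Cdkn2a locus. After 10 days of culture, 20000 transduced cells were grafted into the brain of adult BALB/c hosts, that is, into the strain of origin. When the first symptoms appeared, 3 independent gliomas of each model were dissected and their DsRed-positive cells sorted. A single further library came from wild-type BALB/c progenitors that carried the PDGF-B retrovirus and had been sorted for DsRed, with no graft named in their label. All groups thus share the strain, the embryonic origin and the DsRed vector, the sort was for the reporter and not for a glial surface protein, and the culture is 1 library with no replicate.

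Library sizes lay between 32513754 and 39062584 recovered reads. The transcripts of the driver genes went against the glioma labels. Egfr ranged from 3594 to 5109 CPM (read counts scaled to a common library size) under the PDGF-B label and from 25.6 to 41.2 CPM under the EGFRvIII label, with 282 CPM in the culture. Pdgfb ranged from 1.95 to 4.88 CPM under the PDGF-B label and from 277 to 386 CPM under the EGFRvIII label, with 245 CPM in the culture. Cdkn2a, the locus that the Ink/Arf -/- genotype removes in whole or in part, ranged from 2.94 to 4.99 CPM under the PDGF-B label, given as wild type, and from 11.2 to 26.1 CPM under the EGFRvIII label. In the culture, also given as wild type, it stood at 10.7 CPM. The libraries are therefore named by their labels throughout, and no direction below can be assigned to an oncogene. All 6 markers of oligodendrocyte precursors and glioma cells were detected. Their summed level ranged from 6359 to 12398 CPM under the PDGF-B label and from 5715 to 5750 CPM under the EGFRvIII label, against 1995 CPM in the culture.

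Class I molecules sit on nearly all nucleated cells and carry peptides cut from the cell's own proteins by the proteasome, moved into the endoplasmic reticulum by the Tap1-Tap2 transporter and loaded onto a heavy chain paired with B2m. Class II molecules are made mainly by professional antigen-presenting cells, such as dendritic cells, B cells and macrophages, where Cd74 occupies the groove until lysosomal proteases remove it. In the brain, resting neurons and glia make little of either class, microglia and macrophages are the main myeloid cells able to make class II, and interferon gamma raises both classes, through Nlrc5 for class I genes and through Ciita for class II genes.

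Of the 10 genes, 8 lie on chromosome 17, within the H2 complex. In GRCm38 coordinates these are H2-K1 at chr17:33996017-34000347 on the minus strand, Tap1 at chr17:34187553-34197225, Psmb8 at chr17:34197721-34201454, Tap2 at chr17:34203527-34216321, H2-Ab1 at chr17:34257689-34269419, H2-Aa at chr17:34282744-34287823 on the minus strand, H2-Eb1 at chr17:34305867-34316674 and H2-D1 at chr17:35262730-35267499, with those not marked as minus on the plus strand. B2m lies at chr2:122147686-122153083 on the plus strand, and Cd74 outside the complex on another chromosome. BALB/c mice carry another haplotype of this complex than the C57BL/6J reference, so reads of H2 genes may have mapped in part, and the highly similar class I heavy chains can share reads. Differences between libraries compare the same strain, whereas levels of one H2 gene against another can carry this bias.

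The upstream stretches of H2-K1 and B2m and of the class II chains H2-Aa and H2-Eb1 are shown because they hold the letters by which these families are usually recognised, and the members of each class are compared below. The sequences are RefSeq's, from GRCm38.p6, where 7 of the 10 members had an entry and the 250 bases before the start site were searched. In H2-K1 (chr17:34000351-34000465, minus strand, upstream of the start) and B2m (chr2:122147542-122147641, plus strand), capitals mark the kB type (GGG and CCC with any 5 bases between them), the IRF type (GAA or GAAA, any 2 bases, then GAAA), TGACG and ATTGG, each searched on both strands.
H2-K1: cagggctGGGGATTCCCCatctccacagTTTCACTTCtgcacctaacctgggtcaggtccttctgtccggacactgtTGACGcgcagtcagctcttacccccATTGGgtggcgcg
B2m: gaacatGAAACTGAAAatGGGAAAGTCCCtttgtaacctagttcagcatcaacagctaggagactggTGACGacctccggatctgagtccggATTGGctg

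In H2-Aa (chr17:34287863-34287909, minus strand) and H2-Eb1 (chr17:34305771-34305817, plus strand), capitals mark GCAAC followed by ATTGG, letters found in the conserved upstream module of class II genes.
H2-Aa: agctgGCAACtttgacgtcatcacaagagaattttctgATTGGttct
H2-Eb1: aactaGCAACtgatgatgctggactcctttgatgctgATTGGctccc

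The starts of the 2 marked motifs were 33 bases apart in H2-Aa and 32 in H2-Eb1. The pair, at a distance of 28 to 38 bases that was set from these sequences, occurred in 0.411% of 32851 promoter windows of the same length. H2-DMb1, a class II gene outside the members that was also searched, held ATTGG but not the pair. H2-K1, H2-D1 and B2m each held all 4 of the motifs marked in H2-K1 and B2m, which on their own occurred in 12.2% (kB type), 8.82% (IRF type), 17.8% (TGACG) and 33.8% (ATTGG) of windows. The H2-D1 stretch matched that of H2-K1 at 100 of 111 aligned bases (90.1%). In Tap1 the kB type, TGACG and ATTGG were found, and in Psmb8 none of the 4. These letters were not confined to class I genes, since H2-Aa also held the kB type, TGACG and ATTGG, and only its GCAAC and ATTGG are in capitals above. The IRF type overlapped no other marked motif in the stretches shown. A match describes letters in the reference strain and says nothing of binding.

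The heavy chain transcripts were abundant in every glioma and varied several-fold within each group. H2-K1, a classical heavy chain, stood at 181, 61.2 and 301 CPM in the gliomas labelled PDGF-B (replicates 1 to 3), at 129, 736 and 143 CPM in those labelled EGFRvIII, and at 29.6 CPM in the culture. Replicate 2 of the EGFRvIII label was the highest library and replicate 2 of the PDGF-B label the lowest glioma, and the groups overlapped. The group means were 181 ± 120 and 336 ± 346 CPM (SD, n = 3 each). H2-D1, the other classical heavy chain measured, stood at 305, 111 and 436 CPM under the PDGF-B label and at 206, 888 and 181 CPM under the EGFRvIII label, against 8.99 CPM in the culture. The same 2 gliomas stood at the ends of the range, and the means were 284 ± 164 and 425 ± 401 CPM (SD, n = 3 each).

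B2m, the light chain without which the heavy chain does not reach the cell surface, had the same gliomas at the ends of its range. It stood at 333, 101 and 421 CPM in the gliomas labelled PDGF-B, at 285, 1311 and 259 CPM in those labelled EGFRvIII, and at 26.5 CPM in the culture. The groups overlapped, with means of 285 ± 165 and 619 ± 600 CPM (SD, n = 3 each). Within a group the highest library exceeded the lowest by 3.93-fold to 4.92-fold for these 3 chains under the PDGF-B label and by 4.90-fold to 5.69-fold under the EGFRvIII label.

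The genes for peptide supply were lower in level and less alike. Tap1, a subunit of the peptide transporter, stood at 34.1, 9.53 and 39.1 CPM under the PDGF-B label, at 12.2, 41.0 and 16.6 CPM under the EGFRvIII label, and at 9.09 CPM in the culture, so that replicate 2 of the PDGF-B label lay close to the culture. Tap2, its partner, was the steadiest member, at 28.2, 24.6 and 27.4 CPM under the PDGF-B label and 17.4, 29.3 and 14.3 CPM under the EGFRvIII label, against 5.17 CPM in the culture. Its highest and lowest libraries differed by only 1.15-fold and 2.05-fold within the respective groups. Psmb8, which replaces a constitutive catalytic subunit when the immunoproteasome is assembled, stood at 19.0, 6.74 and 24.4 CPM, at 12.6, 52.4 and 12.1 CPM, and at 0.839 CPM (29 reads) in the culture.

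Class II transcripts varied far more between gliomas than class I. Cd74, the chaperone of newly made class II molecules, stood at 17.6, 9.44 and 191 CPM in the gliomas labelled PDGF-B, at 10.4, 422 and 36.0 CPM in those labelled EGFRvIII, and at 0.145 CPM (5 reads) in the culture. One glioma of each label, replicate 3 for PDGF-B and replicate 2 for EGFRvIII, stood well above the other 4. H2-Aa, the alpha chain of the A molecule, stood at 8.50, 2.48 and 57.3 CPM, at 1.99, 148 and 7.64 CPM, and at 0.0579 CPM (2 reads) in the culture. H2-Ab1, its beta chain, stood at 13.3, 4.20 and 60.9 CPM, at 9.88, 148 and 15.6 CPM, and at 0.289 CPM (10 reads) in the culture. H2-Eb1 stood at 4.18, 0.798 and 27.4 CPM and at 0.692, 58.7 and 1.69 CPM, with 0 reads in the culture, which allows up to 0.0868 CPM (3 reads of this library). The same pair of gliomas was highest for all 4 genes, and the groups overlapped for each.

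The highest library of a group exceeded the lowest by 14.5-fold (H2-Ab1) to 34.3-fold (H2-Eb1) under the PDGF-B label and by 15.0-fold (H2-Ab1) to 84.7-fold (H2-Eb1) under the EGFRvIII label. Group means of class II members therefore rested mostly on 1 library each, as for Cd74 with 72.8 ± 103 and 156 ± 231 CPM (SD, n = 3 each). H2-Ea-ps carries the name of the E alpha pseudogene of the reference strain, while BALB/c mice make an E alpha chain. It stood at 2.42, 0.606 and 17.6 CPM, at 0.602, 42.2 and 1.55 CPM, and at 0 reads in the culture, with the same 2 libraries on top.

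**Figure D1:**
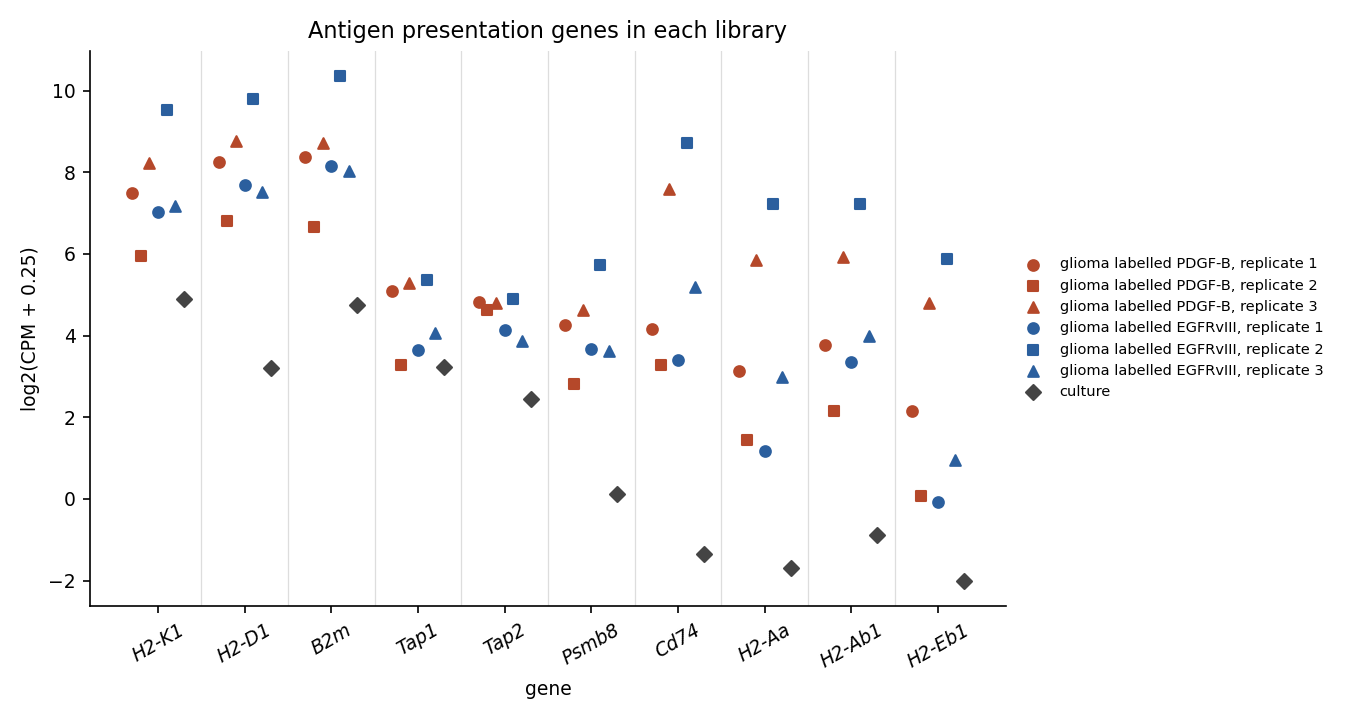
Level of the 10 members in each library, as log2(CPM + 0.25), with a column per gene, 1 point per library, the gliomas labelled PDGF-B and EGFRvIII in separate colours and the culture as a diamond. The 2 glioma groups overlap in every column, the culture lies under all 6 gliomas in every column, and the 4 class II columns span the widest range.

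Replicate 3 of the PDGF-B label was the highest library of its group for 9 of 10 members, the exception being Tap2, and replicate 2 was the lowest for all 10. Under the EGFRvIII label, replicate 2 was the highest for 10 of 10, and the lowest was replicate 1 for 6 members and replicate 3 for 4. Over all 17422 genes, replicate 3 of the PDGF-B label was the highest of its group for 39.5%, its replicate 2 the lowest for 33.3%, and replicate 2 of the EGFRvIII label the highest for 41.1%. Several members can follow 1 library together, so they are not independent observations of it.

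Per kilobase of exon, the class I chains had the highest group means under both labels. On this scale, mean levels under the PDGF-B and EGFRvIII labels were 331 ± 192 and 719 ± 698 CPM per kb for B2m (SD, n = 3 each here and below), followed by H2-D1 with 110 ± 63.5 and 165 ± 156, and H2-K1 with 61.6 ± 40.8 and 114 ± 118. Cd74 came next with 43.4 ± 61.2 and 93.0 ± 137 CPM per kb, the highest class II level. In replicate 3 of the PDGF-B label Cd74 exceeded H2-K1, at 114 against 103 CPM per kb. In replicate 2 of the EGFRvIII label they stood close together, at 252 and 250 CPM per kb. The other 6 members had means between 4.25 and 22.5 CPM per kb. From H2-D1 downwards, each gap between neighbours in the order was smaller than the SD of at least 1 of the pair, under both labels. In the culture B2m was at 30.8, H2-K1 at 10.1 and H2-D1 at 3.48 CPM per kb, so H2-D1 stood below H2-K1 there and above it in all 6 gliomas. The H2-D1 to H2-K1 ratio per kb was 1.93, 2.06 and 1.65 under the PDGF-B label, 1.81, 1.38 and 1.44 under the EGFRvIII label, and 0.346 in the culture.

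No member passed the test between the glioma models. With limma on the log2 values, 0 of 10 members passed an adjusted p of 0.05, whereas 3.35% of all genes were called. An unadjusted p under 0.05 was found for 0 of 10 members by limma or with voom weights. Among all 17422 genes it was found for 2906 by limma and 2875 with voom weights. The groups overlapped for all 10 members, while 22.9% of all genes had groups that did not overlap. Differences, as gliomas labelled PDGF-B minus those labelled EGFRvIII on the log2 scale with SE, ran from -0.92 ± 0.75 for B2m (adjusted p = 0.567) to 0.46 ± 0.29 for Tap2 (adjusted p = 0.461). Their median was -0.42, against -0.00015 over all genes. Class II members had the widest errors, such as -0.77 ± 1.53 for Cd74 (adjusted p = 0.809) and 0.12 ± 1.80 for H2-Eb1 (adjusted p = 0.978), so that differences of several-fold in either direction were not resolved with 3 gliomas a group. The direction of 8 members turned with the left-out glioma: without replicate 2 of the EGFRvIII label the difference for H2-Aa was 1.44 in place of -0.30, and that for Cd74 was 0.71. The labels call the gliomas independent, and these p-values measure the spread between them.

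Against the culture, every member was higher in all 6 gliomas, a pattern that 27.8% of all genes shared. H2-D1, Tap2 and Psmb8 passed the test. In the gliomas labelled PDGF-B they exceeded the culture by 4.76 ± 1.01 (adjusted p = 0.0293), 2.35 ± 0.41 (adjusted p = 0.0151) and 4.03 ± 0.98 (adjusted p = 0.0455) on the log2 scale, and the ratios of mean CPM were 31.6, 5.17 and 19.9. These were 3 of 10 members, against 7.73% of all genes called higher. Another 5 members had an unadjusted p under 0.05, which makes 8 of 10, beside 4733 of all 17422 genes in either direction. B2m with 3.19 ± 1.06 (adjusted p = 0.106) and Cd74 with 7.29 ± 2.15 (adjusted p = 0.0798) did not pass. H2-K1 differed by 2.33 ± 1.12 (adjusted p = 0.228) and Tap1 by 1.35 ± 0.90 (adjusted p = 0.365).

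In the gliomas labelled EGFRvIII the same 3 genes passed. H2-D1 exceeded the culture by 5.15 ± 1.01 (adjusted p = 0.0204), Tap2 by 1.90 ± 0.41 (adjusted p = 0.0297) and Psmb8 by 4.48 ± 0.98 (adjusted p = 0.0305), with ratios of mean CPM of 47.3, 3.93 and 30.6. They were again 3 of 10, against 8.2% of all genes called higher. An unadjusted p under 0.05 was found for 9 of 10 members, beside 4157 of all 17422 genes in either direction. B2m differed by 4.11 ± 1.06 (adjusted p = 0.0544), and Tap1, at 1.15 ± 0.90 (adjusted p = 0.496), was the member with the smallest difference. The median difference over the 10 members was 4.40 under the PDGF-B label and 4.82 under the EGFRvIII label, against 0.04 and 0.01 over all genes. Both comparisons use the same culture library, which is assumed to vary as the gliomas do, so neither supports the other.

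No class II member passed in either comparison, although their ratios were the largest. The mean CPM of H2-Ab1 was 90.3 times that of the culture under the PDGF-B label and 199.7 times under the EGFRvIII label. For Cd74 the ratios were 503 (95% exact Poisson interval on the 5 culture reads 216 to 1549) and 1079 (463 to 3324). For H2-Aa they were 393 (109 to 3248) and 907 (251 to 7486) on 2 culture reads. H2-Eb1 was at least 124-fold and at least 234-fold higher, taking 3 reads as the floor of the culture library. These intervals and floors cover counting error in the culture only. The fitted differences carried standard errors of 1.73 to 2.55 on the log2 scale, since the gliomas themselves differed so widely.

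**Figure D2:**
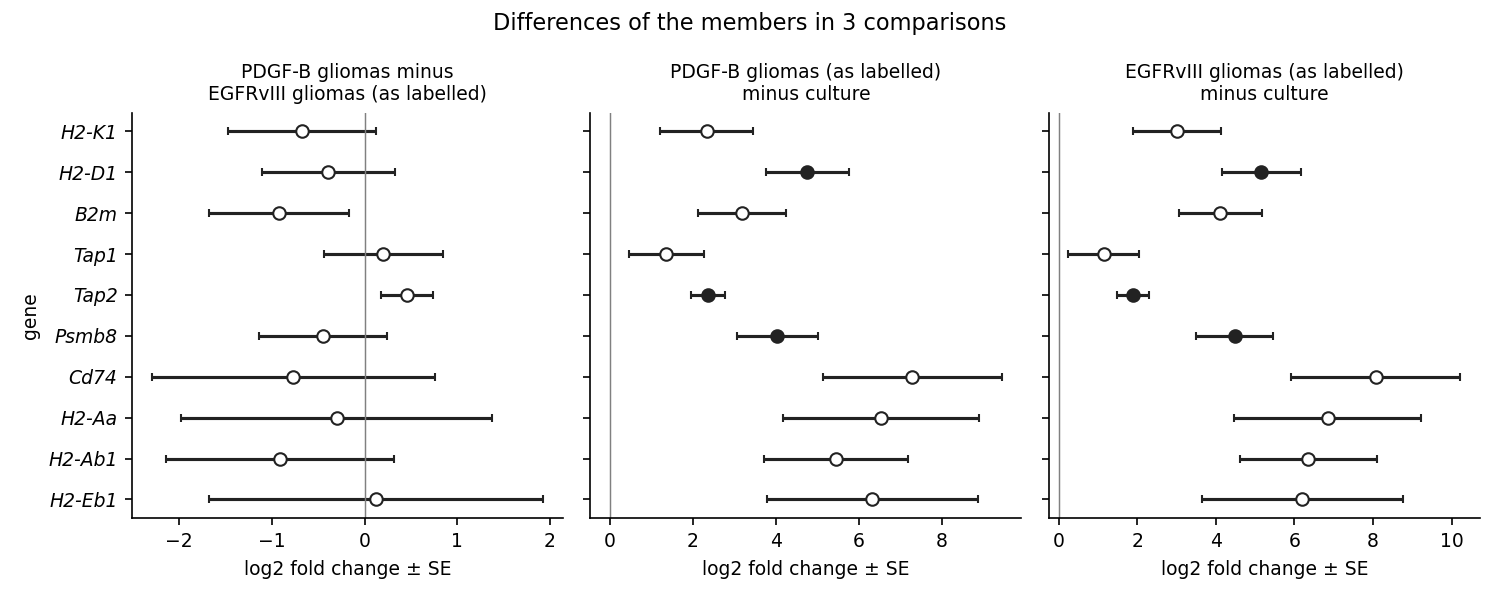
Log2 difference of each member with its standard error, for the gliomas labelled PDGF-B minus those labelled EGFRvIII and for each glioma group minus the culture, with filled points where the limma adjusted p was under 0.05. Differences between the glioma groups lie around 0 with none filled, while H2-D1, Tap2 and Psmb8 are filled in both comparisons with the culture.

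These calls depended on the libraries and on the weights. Psmb8 under the PDGF-B label had an adjusted p of 0.109 without replicate 1 and of 0.0614 without replicate 3, and H2-D1 one of 0.0715 without replicate 1, which left Tap2 as the only member called. Under the EGFRvIII label, Tap2 (adjusted p = 0.0628) and Psmb8 (adjusted p = 0.0547) did not pass without replicate 1, and Psmb8 did not without replicate 3 (adjusted p = 0.0534). Psmb8 also did not pass with log2(CPM + 1) (adjusted p = 0.0885 under the PDGF-B label and 0.0613 under the EGFRvIII label) or with quantile normalization (adjusted p = 0.0604 and 0.0504). With voom weights 0 of 10 passed in either comparison, with 3 and 5 members at an unadjusted p under 0.05. Of all 17422 genes, 4470 and 3964 were under that unadjusted threshold with voom weights, in either direction.

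Markers of myeloid cells were present in the sorted gliomas, at lower levels under the PDGF-B label. All 12 listed microglia and macrophage markers, among them C1qa, were measured. Their summed level was 362, 478 and 1020 CPM under the PDGF-B label and 3913, 9477 and 5055 CPM under the EGFRvIII label, against 22.3 CPM in the culture, where Trem2 and Tyrobp were at 0. All 12 were called lower under the PDGF-B label than under the EGFRvIII label by limma, against 2.63% of all genes, but 0 or 1 of 12 passed when any glioma other than replicate 3 of the PDGF-B label was left out. Of the 9 border macrophage and monocyte markers, 7 were measured, and their sum ranged from 44.5 to 643 CPM under the PDGF-B label and from 900 to 2586 CPM under the EGFRvIII label. In bulk libraries, fewer cells of a type and less RNA per cell cannot be told apart.

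Few markers of other antigen-presenting and lymphoid cells were measured. Only 3 of 8 dendritic cell markers were measured (Itgax, Siglech and Zbtb46), with sums of 26.4 to 35.2 CPM under the PDGF-B label and 114 to 259 CPM under the EGFRvIII label. Itgax and Siglech were at 0 in the culture. Like the macrophage markers, they were lower in every library labelled PDGF-B than in any labelled EGFRvIII. Which cells made them was not tested, so the sum cannot be read as a level of dendritic cells. Zbtb46 stood the other way from that sum, at 4.11 to 6.25 CPM under the PDGF-B label and 2.45 to 4.28 CPM under the EGFRvIII label, with 5.27 CPM in the culture (0.64 ± 0.34 between the glioma groups, adjusted p = 0.398). The 2 of 6 B cell markers measured, Ighm and Cd79b, summed to 1.76 to 3.25 CPM and 13.7 to 24.6 CPM and were at 0 in the culture. Of 9 T and NK cell markers only Cd4 was measured, at 0 to 0.532 CPM and 0.508 to 9.91 CPM. Endothelial markers (5 of 6) summed to 4.16 to 18.4 CPM, 15.2 to 28.5 CPM and 28.4 CPM in the culture, where Cldn5 and Cdh5 were at 0. Flt1 made up 26.6 CPM of the culture's sum and was lower in every glioma, at 1.19 to 14.8 CPM, whereas the other 4 were lower in the culture than in every glioma. The part of any of these cells in the levels of the 10 members was not tested.

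Set against the macrophage markers, class II transcripts differed widely within each group. The 4 class II members summed to 43.6, 16.9 and 337 CPM under the PDGF-B label and to 22.9, 777 and 60.9 CPM under the EGFRvIII label. As a percentage of the summed macrophage markers this was 12.1%, 3.54% and 33.0% in the former and 0.586%, 8.20% and 1.21% in the latter, so replicate 2 of the EGFRvIII label lay within the range of the other group. The mean log2 level of the class II members minus that of the markers was -1.25 ± 1.65 and -4.12 ± 2.27 (SD, n = 3 each), a difference of 2.86 with a 2-sided exact permutation p of 0.2 (0.3 after Benjamini-Hochberg adjustment over the 3 ratios compared). The smallest p that 3 against 3 can give is 0.1.

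**Figure D3:**
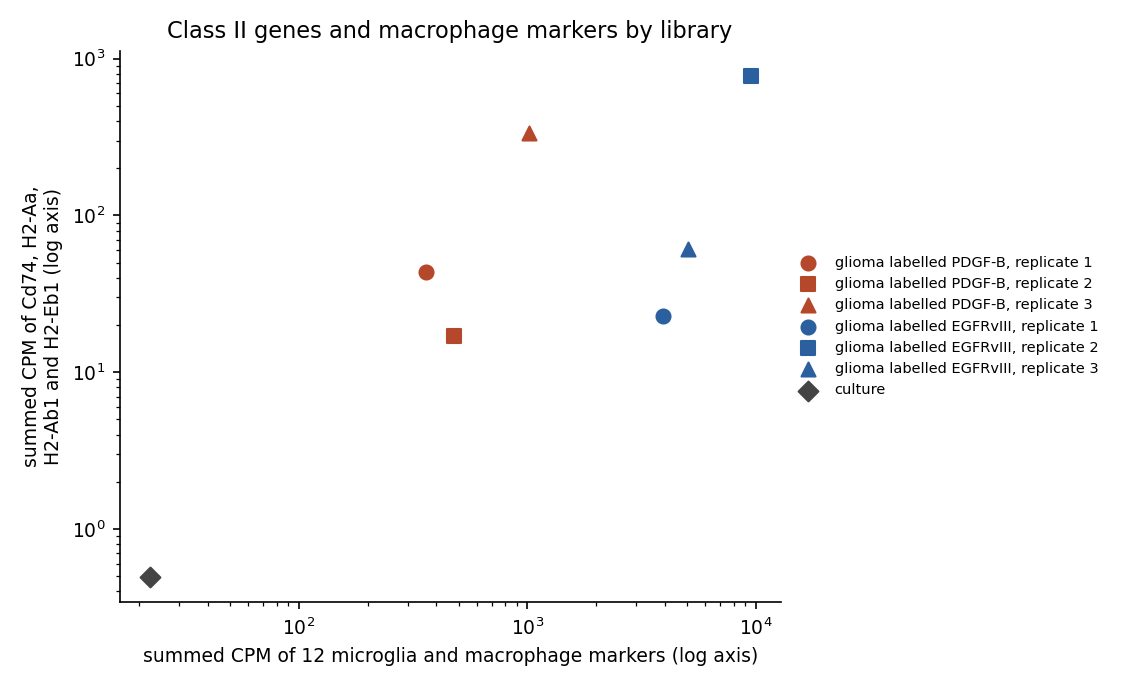
Summed CPM of the 4 class II members against summed CPM of the 12 microglia and macrophage markers, 1 point per library, on logarithmic axes. The gliomas labelled EGFRvIII lie at 3913 to 9477 CPM of markers and those labelled PDGF-B at 362 to 1020 CPM, while class II sums of 16.9 to 777 CPM overlap between the groups.

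The balance of heavy chains to light chain was narrower. The summed CPM of H2-K1 and H2-D1 was 1.46, 1.70 and 1.75 times that of B2m in the gliomas labelled PDGF-B, 1.18, 1.24 and 1.25 times in those labelled EGFRvIII, and 1.46 times in the culture. The groups did not overlap. Taken as single genes, 22.9% of all genes had groups that did not overlap, but no such share was computed for ratios. On the log2 scale the means were 0.71 ± 0.14 and 0.29 ± 0.05 (SD, n = 3 each), with an exact permutation p of 0.1 (2-sided; 0.3 adjusted), the smallest this design allows. For H2-D1 alone the difference was 0.54 (exact permutation p = 0.1), and for H2-K1 alone it was 0.25 (exact permutation p = 0.3).

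Psmb8 was also set against Psmb5, the constitutive subunit whose place it takes. The ratio of their CPM was 1.23, 0.345 and 1.21 under the PDGF-B label and 0.651, 1.12 and 0.635 under the EGFRvIII label, against 0.0312 in the culture. Replicate 2 of the PDGF-B label was lowest and the groups overlapped (log2 difference 0.05, exact permutation p = 0.8). Psmb5 itself stood at 26.9 CPM in the culture and at 15.4 to 46.7 CPM in the gliomas. The other immunoproteasome subunits, Psmb9 and Psmb10, were at 0.736 to 12.7 CPM and 9.18 to 28 CPM in the gliomas and at 0.476 and 6.63 CPM in the culture. None of the 5 listed immunoproteasome partners was called in any comparison by limma or with voom weights (0, 1 and 1 of 5 at an unadjusted p under 0.05 by limma). In the same order, 2906, 4733 and 4157 of all 17422 genes had an unadjusted p under 0.05 by limma.

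Of 104 further genes listed for the pathway, 96 were measured. Between the glioma groups 13 of them fell and 0 rose under the PDGF-B label, with a median difference of -0.41, while 2.63% of all genes were called lower. These were 5 processing enzymes, 3 co-stimulatory and checkpoint genes, 2 relatives of the class I heavy chains, 2 transcriptional regulators and 1 interferon receptor chain. Of 7 class II processing enzymes, 5 were called lower and all 7 had groups that did not overlap, against 12.6% of all genes with every library labelled PDGF-B below those labelled EGFRvIII. Ctss, the protease that trims Cd74 in antigen-presenting cells, stood at 70.9, 112 and 339 CPM and at 904, 2281 and 849 CPM, with 0.116 CPM in the culture (-3.11 ± 0.62, adjusted p = 0.0453). Ctsd (-3.51 ± 0.56, adjusted p = 0.0301), Ctsb (-2.59 ± 0.40, adjusted p = 0.0280), Ctsh (-3.53 ± 0.65, adjusted p = 0.0359) and Lgmn (-2.84 ± 0.43, adjusted p = 0.0276), all lysosomal proteases, were the others. The macrophage markers moved in the same direction over the same libraries, and their part in these calls was not tested.

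Co-stimulatory and checkpoint genes gave 3 of 7 called lower, again beside 2.63% of all genes. Cd86, a ligand of the T cell receptors CD28 and CTLA-4, stood at 3.73, 3.97 and 7.37 CPM under the PDGF-B label and at 31.6, 122 and 34.1 CPM under the EGFRvIII label (-3.40 ± 0.55, adjusted p = 0.0311). Icam1, an adhesion ligand, and Havcr2, which encodes the checkpoint receptor TIM-3, differed by -1.88 ± 0.28 (adjusted p = 0.0270) and -3.46 ± 0.50 (adjusted p = 0.0257). Among 17 other class I heavy chains and relatives, Fcgrt, the neonatal Fc receptor (-3.18 ± 0.51, adjusted p = 0.0309), and Hfe, a regulator of iron uptake (-2.39 ± 0.41, adjusted p = 0.0318), were called lower. Neither presents peptide, though both pair with B2m. None of these 13 calls stood when any glioma other than replicate 3 of the PDGF-B label was left out (0 of 96 called each time), and without that library 22 of 96 were called.

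None of 8 peptide loading and trimming genes was called between the glioma groups by limma or with voom weights (1 at an unadjusted p under 0.05), and Calr, Pdia3 and Canx, the most abundant, differed by -0.18 ± 0.48, -0.49 ± 0.40 and -0.09 ± 0.28. None of 5 further class II chains and chaperones was called by either (3 at an unadjusted p under 0.05 by limma). Among all 17422 genes, 2906 had an unadjusted p under 0.05 by limma between these groups. H2-DMa, which exchanges peptide on class II molecules together with H2-DM beta chains, stood at 13, 7 and 21.7 CPM and at 31.8, 95.5 and 28.3 CPM, with groups that did not overlap (-1.81 ± 0.56, adjusted p = 0.159). The 2 ubiquitin ligases that remove class II from the surface, March1 and March8, differed by 0.27 ± 0.36 and -0.06 ± 0.15.

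Irf8 and Spi1, which direct the myeloid lineage, were the 2 of 16 transcriptional regulators called lower under the PDGF-B label, by -1.81 ± 0.28 (adjusted p = 0.0286) and -3.29 ± 0.58 (adjusted p = 0.0326). Among all genes 2.63% were called lower. Neither call stood when any glioma other than replicate 3 of the PDGF-B label was left out. Nlrc5, the co-activator of class I genes, stood the other way at 31.2, 6.36 and 35.5 CPM under the PDGF-B label and at 5.54, 12 and 4.96 CPM under the EGFRvIII label, without passing (1.46 ± 0.69, adjusted p = 0.341). Ciita, the co-activator of class II genes, stood at 4.01, 0.794 and 3.42 CPM and at 0.699, 0.897 and 1.13 CPM, with 0.261 CPM in the culture (1.27 ± 0.64, adjusted p = 0.367). By summed class II level, replicate 2 of the EGFRvIII label was the highest glioma and replicate 2 of the PDGF-B label the lowest. Their Ciita levels rested on 30 and 26.2 estimated reads, and the part of Ciita in class II levels was not tested. Nlrc5, Ciita and Psmb9 with Psmb10 were singled out after their values were seen.

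Interferon-induced genes showed 0 of 17 called between the glioma groups by limma or with voom weights. By limma 4 of 17 had an unadjusted p under 0.05, all higher under the PDGF-B label, beside 2906 of all 17422 genes in either direction. The median difference of the 17 was 0.67, and 2 of 17 had all gliomas labelled PDGF-B above those labelled EGFRvIII, against 10.3% of all genes. Gbp7, an interferon-inducible GTPase, stood at 104, 74.1 and 97.7 CPM and at 30.4, 55.5 and 20.009 CPM (1.49 ± 0.36, adjusted p = 0.0810). Irgm1, another, differed by 0.67 ± 0.46 (adjusted p = 0.498). Of 9 interferon receptors and kinases, only Ifngr1, a chain of the interferon gamma receptor, was called, beside 2.63% of all genes called lower. It was lower under the PDGF-B label at 16.3, 23.6 and 26.2 CPM against 61.4, 81.1 and 59.8 CPM (-1.63 ± 0.24, adjusted p = 0.0257). The list went both ways: 4 of 9 had every library labelled PDGF-B below those labelled EGFRvIII and 3 had every one above. Over all genes these shares were 12.6% and 10.3%.

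**Figure D4:**
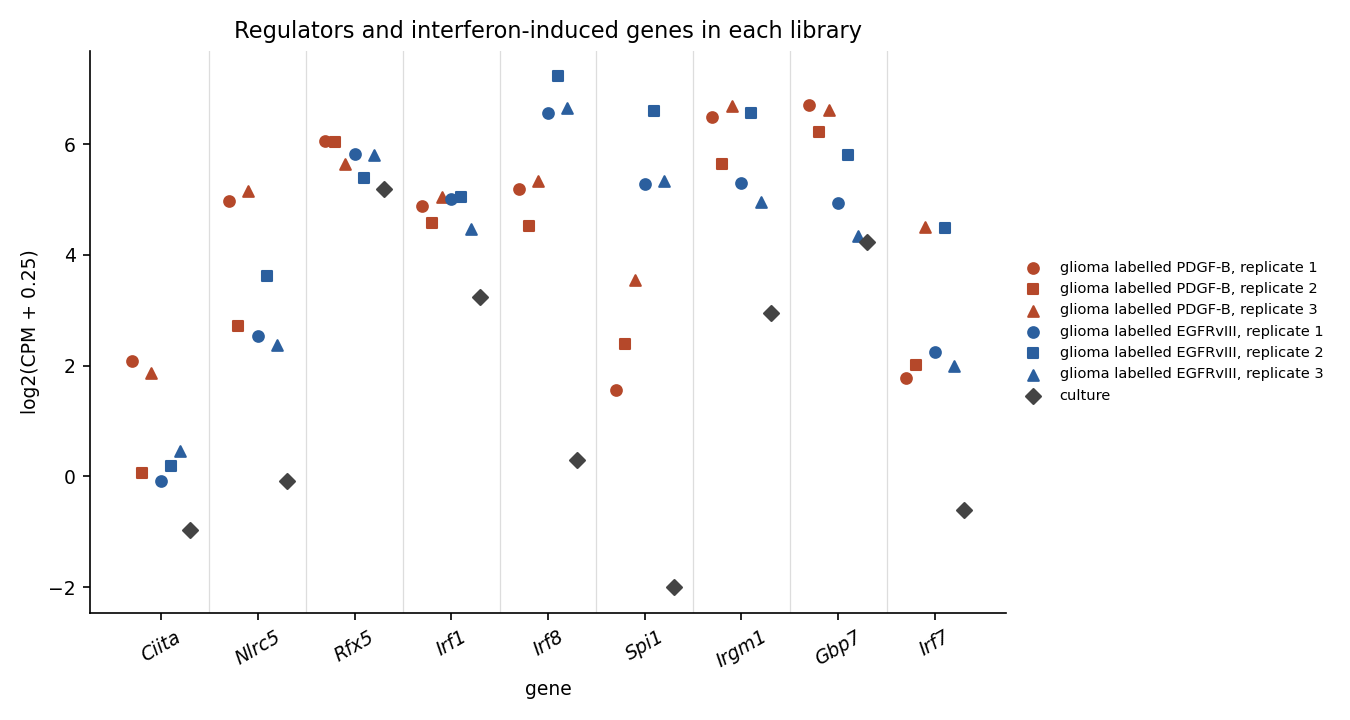
Level of 9 regulators and interferon-induced genes in each library, as log2(CPM + 0.25), with colours and symbols by label and replicate. Irf8 and Spi1 lie higher in all gliomas labelled EGFRvIII, Nlrc5 and Ciita are high in replicates 1 and 3 of the PDGF-B label, and the culture lies under all gliomas for each gene shown.

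Relative to the culture, 22 of the 96 pathway genes rose under the PDGF-B label and 31 under the EGFRvIII label, and 0 fell in either, while 7.73% and 8.2% of all genes were called higher. The medians were 1.93 and 2.43 on the log2 scale. Class I relatives that passed in both included H2-T23, which encodes the non-classical molecule Qa-1, at 4.32 ± 0.84 (adjusted p = 0.0223) and 4.74 ± 0.84 (adjusted p = 0.0140). Irf1, an activator of class I and interferon genes, passed in both at 1.61 ± 0.33 (adjusted p = 0.0276) and 1.62 ± 0.33 (adjusted p = 0.0250), and Nlrc5 passed under the PDGF-B label (4.68 ± 0.98, adjusted p = 0.0286) but not under the EGFRvIII label (3.21 ± 0.98, adjusted p = 0.0924). March1 rose by 3.75 ± 0.50 (adjusted p = 0.00626) and 3.48 ± 0.50 (adjusted p = 0.00592). With voom weights the counts were 2 and 6 of 96. The 22 became 10 with log2(CPM + 1) and 13 without replicate 1 of the PDGF-B label. All 12 macrophage markers stood higher in every glioma than in the culture, and their part was not tested.

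The genes with the most similar profiles over the 7 libraries came largely from the same complex. Likeness was the root-mean-square log2 distance between centred profiles, among 11227 genes that reached 10 CPM in a library. The members, genes without a symbol and predicted genes (Gm-number and Rik symbols) were left out beforehand, so none of these could be named. Nearest to the mean profile of H2-K1, H2-D1 and B2m were H2-T23 (0.35), H2-Q6 (0.38), H2-Q7 (0.38), H2-Q5 (0.40) and H2-Q4 (0.45), against 1.66 for the median gene. H2-Q4, the most abundant of these, stood at 65.4, 14.3 and 89.8 CPM, at 28.2, 94.6 and 25.8 CPM, and at 4.13 CPM in the culture. The H2-Q genes are near-identical copies that can share reads with each other and with the classical chains, so their separate values are uncertain.

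Nearest to the class II profile was H2-Ea-ps (0.56), followed at a distance by Irf7 (1.21), Zbp1 (1.22), H2-DMb1 (1.22) and H2-T23 (1.25), against 2.68 for the median gene. The 4 members themselves lay at 0.22 to 0.56 from their mean. Irf7, a regulator of type I interferon, stood at 3.17, 3.79 and 22.5 CPM, at 4.47, 22.2 and 3.73 CPM, and at 0.405 CPM in the culture, with the same 2 gliomas on top. Zbp1, an interferon-induced sensor of nucleic acids, and H2-DMb1, a chain of H2-DM, were also highest in those 2 gliomas, at 11.5 and 13.2 CPM and at 8.02 and 15.2 CPM. These distances rest mostly on the culture and on those 2 libraries, and are a description of 7 points.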

How the data were processed

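Each of the 7 tables holds 1 library. Per the file headers the values are log2 CPM, log2 read counts scaled to library size, which the authors deposited for the same 17422 Ensembl genes; the header of replicate 3 of the EGFRvIII label names no unit. STAR, edgeR and mm10 appear in the submitters' processing notes; the counting tool, filter and scaling were not given in the sources used here. Symbols came from GENCODE M21 (17254 identifiers matched, 168 did not).

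The lowest value of every table is shared, as left by a prior count of 2 scaled to library size, so CPM and estimated reads were recovered by subtracting it; 36.3% to 38.5% of values came out whole (within 0.02 reads), so no count test was run. Levels are these CPM. Tests used limma 3.58.1 in R 4.3.3 on the deposited log2 values of all 17422 genes, with trend and robust moderation and Benjamini-Hochberg adjusted p under 0.05: the 6 gliomas for the comparison of models, and all 7 libraries in 3 groups for those with the culture (4 residual degrees of freedom each). The fitting code was run on simulated counts with the same dispersion setting for every gene and library. This checks the code, not the error rates for genes as variable as the class II members or for a lone culture library. Single ratios used exact permutation tests.

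The members, lists and tests were chosen with earlier results of these data known. Named besides the members are, per pathway list, the 3 most abundant genes and those called between glioma groups, the 2 most abundant markers per marker list, and the 5 genes of closest profile (of these, those with a result to show are printed). Alternatives were log2(CPM + 1), at least 1 CPM in 3 libraries, quantile normalization, plain totals, voom weights, no robust moderation, all 7 libraries in the glioma fit, a replicate block and leaving out each glioma.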

Additional observations from a re-analysis of the deposited data

How the results depend on the processing

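The count of genes called between the glioma groups, 583, was 18 with the replicate block and 4 to 1282 when a glioma was left out; 0 of 10 members were called under any of these. Same-numbered gliomas deviated with correlations of 0.185, -0.0445 and -0.107 over 15122 genes, and differently numbered ones with -0.273 to 0.227. With 3 gliomas a group, these values cannot settle whether the numbers pair them. No member was called without the block, so it had no call of a member to remove. Against the culture, 1647 (PDGF-B label) and 1663 (EGFRvIII label) calls became 553 and 721 with voom weights and 854 to 2303 and 1058 to 1612 when a glioma was left out, and the 3 called members became 0 and 0 with voom weights and 1 to 3 in both comparisons when a glioma was left out. B2m passed against the culture under the EGFRvIII label with quantile normalization (adjusted p = 0.0485) and plain totals (adjusted p = 0.0469), and Tap2 did not pass there with quantile normalization (adjusted p = 0.0727). Psmb8 did not pass in either comparison with log2(CPM + 1) (adjusted p = 0.0885 and 0.0613) or quantile normalization (adjusted p = 0.0604 and 0.0504). Quantile normalization moved the median of all genes against the culture to -0.09 and -0.20, and plain totals moved that under the PDGF-B label to 0.15; every member's difference from the culture was positive under all settings. Between glioma groups the difference of H2-Eb1 became -0.013 with log2(CPM + 1). Leaving out a glioma turned the sign of 17 of these differences, which then ranged from -1.18 to 0.13 for H2-K1, -0.80 to 0.34 for H2-D1, -0.17 to 0.85 for Tap1, -0.82 to 0.24 for Psmb8, -2.06 to 0.71 for Cd74, -1.65 to 1.44 for H2-Aa, -1.92 to 0.28 for H2-Ab1 and -1.16 to 2.02 for H2-Eb1, while B2m and Tap2 kept their sign. The Psmb8 to Psmb5 log2 difference ranged from -0.26 to 0.66 in the same way. The cause of these changes was not tested. The culture has 1 library and could not be left out, and its 0 to 10 class II reads limit every ratio to it.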
